A study of Homo sapiens with 12 samples.

Results

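The 42 genes described here encode the enzymes that make, lengthen, desaturate, activate and oxidise fatty acids. They were chosen by gene symbol from the table of 60668 genes, and all 42 symbols were found. By role, 7 genes belong to synthesis, 8 to elongation, 5 to desaturation, 4 to activation, 3 to carnitine-dependent entry into mitochondria, 12 to beta-oxidation and 3 to electron transfer.

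Cells build fatty acids in the cytosol from citrate-derived acetyl-CoA, which ACLY releases, ACACA carboxylates and FASN polymerises into palmitate. Elongases of the ELOVL family and desaturases such as SCD and FADS2 then set chain length and the number of double bonds, and with them the make-up of membranes and stored lipid. Oxidation runs in the opposite direction, after an acyl-CoA synthetase has activated the chain and the carnitine palmitoyltransferases have carried it into the mitochondrion. Malonyl-CoA, the product of the acetyl-CoA carboxylases, inhibits the first of these transferases, so that synthesis and oxidation are coupled.

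RNA was sequenced in bulk from 2 cancer cell lines, each with a knockdown and a scramble group of 3 libraries, or 12 libraries in all. PANC-1 is a pancreatic cancer line and H1299 a lung cancer line, labelled in the series as lung adenocarcinoma cells. PANC-1 cells carried a short hairpin RNA (shRNA) against FOSL1, a subunit of the AP-1 transcription factor, and H1299 cells an shRNA against HDAC2, a histone deacetylase. The comparisons ask how the metabolic transcripts of a cancer line respond to the knockdown of a candidate regulator. Cells of all 4 groups were grown in DMEM with fetal bovine serum, carried a lentiviral shRNA vector and were selected with puromycin, so that no group stands for untransduced cells. Each knockdown rests on a single shRNA, numbered 2 for FOSL1 and 1 for HDAC2 in the labels, and off-target effects cannot be told apart from those of the target.

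The shRNA target sequences are shown because each comparison rests on a single hairpin. They are the study's designed 19-base sequences, written 5′ to 3′ in lower case with no part marked. Whether the FOSL1 sequence belongs to the hairpin numbered 2 is not given in the sources used here, which name no HDAC2 sequence.
FOSL1 shRNA target: gagctgcagtggatggtac
Scramble: cgtacgcggaatacttcga

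FOSL1 fell in PANC-1 from 212, 210 and 234 CPM (counts scaled to a common library total, here with TMM scaling) in the scramble libraries to 169, 159 and 158 CPM in the knockdown libraries, a log2 fold change of -0.43. HDAC2 fell in H1299 from 177, 187 and 196 CPM to 80.9, 71.5 and 81.5 CPM, a log2 fold change of -1.26. Neither target overlapped between its groups, and both labels matched their target. Both knockdowns were partial, with 0.74 of the scramble level left for FOSL1 and 0.42 for HDAC2. FOSL1 was also higher in the HDAC2 knockdown of H1299, by 0.40 on the log2 scale (adjusted p = 4.41e-06, edgeR's quasi-likelihood test). The libraries held 16065723 to 19173421 counts each. Mitochondrially encoded genes took 12.6% to 13.3% of the counts in the PANC-1 knockdown libraries and 6.99% to 7.29% in their scramble libraries, while both H1299 groups lay between 11.3% and 13.01%. All 5 epithelial markers (EPCAM, KRT8, KRT18, KRT19 and CDH1) were detected at 1 CPM or more in PANC-1, but only KRT8 and KRT18 in H1299. The summed epithelial markers were 1472 to 1505 CPM in the PANC-1 knockdown against 1946 to 2485 CPM in scramble, and 356 to 379 CPM in the H1299 knockdown against 570 to 628 CPM in scramble. The PANC-1 sum was mostly KRT8, at a mean of 769 CPM against 1364 CPM. Of the 5 markers there, 4 were lower, while KRT19 was higher, at 355 against 306 CPM (0.22, adjusted p = 0.00401). The 6 fibroblast and smooth muscle markers summed to 73.1 to 80.3 CPM in the PANC-1 knockdown against 219 to 277 CPM in scramble, mostly from COL1A1 (log2 fold change -1.69), and to 8.5 to 11.8 CPM in H1299. The 7 immune markers summed to at most 3.93 CPM. Of the lung alveolar markers only NKX2-1 passed 1 CPM in H1299, and of the acinar and endocrine markers only CHGB in either line, which was lower in the H1299 knockdown (-0.74). The part of these marker shifts in the results below was not tested. In bulk libraries, fewer cells with a transcript and less of it per cell cannot be told apart.

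The FOSL1 knockdown in PANC-1 came with more transcript of the core synthetic enzymes and the main desaturases, and with less of ELOVL6, ELOVL7, SCD5 and ME1. Of the 42 genes, 14 were higher (33.3%), 8 were lower (19%) and 20 did not pass an adjusted p of 0.05 in edgeR's quasi-likelihood test over 16345 genes. Among all genes tested, 23.8% were higher and 27.1% lower. With a log2 fold change beyond 0.5 as well, 8 of the 42 genes were higher and 4 lower, against 10.6% and 15.8% of all genes. The median log2 fold change of the 42 genes was 0.13, and that of all genes -0.02. With mitochondrially encoded genes and the 20 of highest abundance left out before scaling, 14 were higher and 7 lower.

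In the HDAC2 knockdown of H1299, ACADM was the highest and FADS3 the lowest of these genes by log2 fold change. There, 40 genes were tested, of which 5 were higher (12.5%), 8 were lower (20%) and 27 did not pass. Of the 16465 genes tested in H1299, 10.3% were higher and 12.1% lower, so that the share of higher genes lay close to that of all genes. Past a log2 fold change of 0.5, no gene of fatty acid metabolism was higher, the largest increase being 0.42 for ACADM, and 3 were lower, where 1.45% and 5.61% of all genes passed. The remaining 2 genes, ACSL5 and CPT1B, had too few counts for a test in H1299, at 3 to 13 and 2 to 8 counts a library over both groups.

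**Figure D1:**
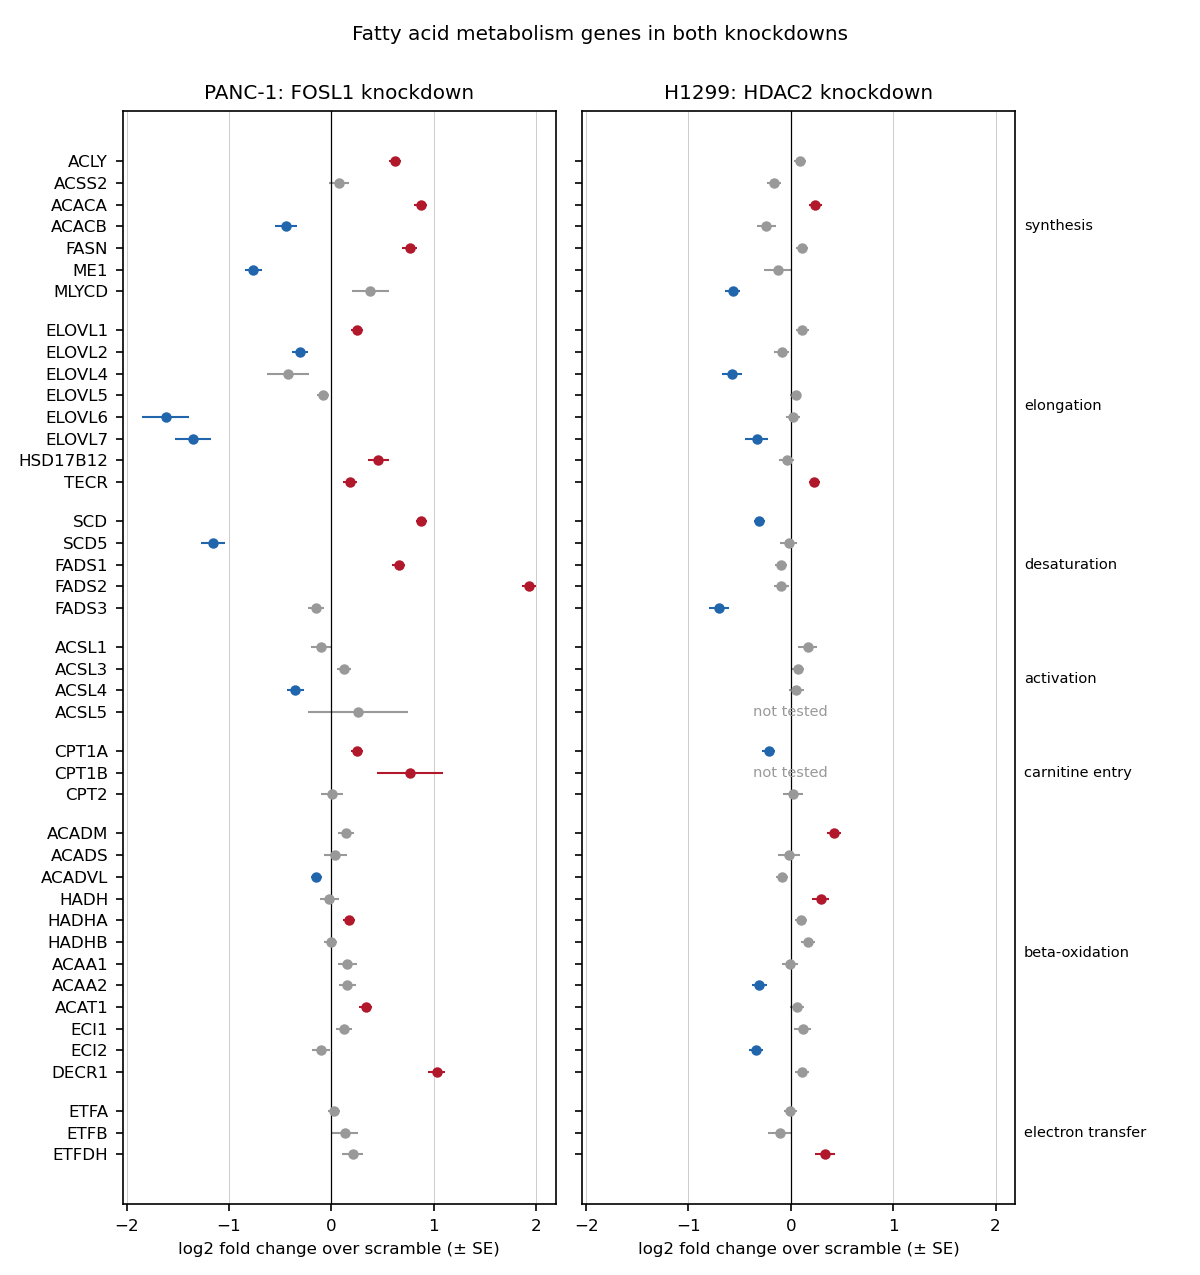
Log2 fold change of each of the 42 genes over the scramble libraries of the same line (x axis, with the standard error as a horizontal bar, 3 libraries against 3), grouped by role on the y axis, for PANC-1 on the left and H1299 on the right. Red marks higher and blue lower genes at an adjusted p under 0.05, and the points spread from -1.62 for ELOVL6 to 1.93 for FADS2 in PANC-1 but stay between -0.70 and 0.42 in H1299.

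Synthesis came first in PANC-1, with 3 of 7 genes higher (42.9%) and 2 lower (28.6%), against 23.8% and 27.1% of all genes tested. ACLY, which splits citrate into acetyl-CoA, measured 294, 303 and 307 CPM in the knockdown libraries and 202, 201 and 183 CPM in scramble, a log2 fold change of 0.63 (SE 0.06, adjusted p = 4.12e-09). ACACA, the cytosolic acetyl-CoA carboxylase that commits carbon to synthesis, measured 122, 132 and 131 CPM against 67.7, 71.9 and 70.7 CPM, a log2 fold change of 0.87 (SE 0.07, adjusted p = 7.97e-11). FASN, the fatty acid synthase, measured 1160, 1216 and 1256 CPM against 786, 748.5 and 604 CPM, a log2 fold change of 0.76 (SE 0.07, adjusted p = 2.26e-09). All 3 knockdown libraries lay above all 3 scramble libraries for each of these enzymes, and FASN spread most among the scramble libraries. ACACB, the carboxylase tied to the outer mitochondrial membrane, went the other way, with a log2 fold change of -0.44 (adjusted p = 0.0017). As a result, the ratio of ACACA to ACACB counts, not corrected for length, was 6.46 to 8.32 in the knockdown and 2.42 to 3.31 in scramble. ME1, the cytosolic malic enzyme that yields NADPH, measured 31.8, 31.0 and 28.6 CPM against 46.4, 52.3 and 56.2 CPM, a log2 fold change of -0.76 (SE 0.09, adjusted p = 8.39e-08). Its groups did not overlap. ACSS2, which makes acetyl-CoA from acetate, and MLYCD, which degrades malonyl-CoA, did not pass the test, at 0.08 and 0.38. MLYCD, at 3.45 to 6.93 CPM, passed when PANC-1 scramble replicate 1 or FOSL1 knockdown replicate 2 was left out (0.55 and 0.50, adjusted p = 0.0132 and 0.0416) and with all 12 libraries in 1 fit.

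Of the 5 desaturases, 3 were higher (60%) and 1 was lower (20%) in PANC-1, against 23.8% and 27.1% of all genes tested. FADS2, which begins the conversion of dietary polyunsaturated fatty acids, measured 217, 228 and 240 CPM in the knockdown against 63.8, 58.2 and 57.3 CPM in scramble, a 3.82-fold difference (log2 fold change 1.93, SE 0.07, adjusted p = 2.83e-17). SCD, which makes monounsaturated from saturated acyl-CoA, measured 1244, 1354 and 1340 CPM against 708, 753 and 682 CPM, a 1.84-fold difference (log2 fold change 0.88, SE 0.05, adjusted p = 2.58e-12). FADS1, which acts after FADS2 in the same route, measured 162, 170 and 177 CPM against 102, 108 and 112 CPM, a 1.58-fold difference (log2 fold change 0.66, SE 0.06, adjusted p = 5.84e-09). None of the 3 overlapped between its groups. The second stearoyl-CoA desaturase, SCD5, fell from 21.9, 18.5 and 24.4 CPM to 10.3, 9.1 and 9.67 CPM, a log2 fold change of -1.16 (SE 0.12, adjusted p = 1.79e-08), and FADS3 did not pass at -0.15. The ratio of SCD to SCD5 counts went from 28.0 to 40.7 in scramble to 121 to 149 in the knockdown. The ratio of FADS2 to FADS1 counts went from 0.513 to 0.627 in scramble to 1.34 to 1.36 in the knockdown. Both ratios are of counts, not corrected for length, and neither overlapped between groups.

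FADS2 (ENSG00000134824.14) lies on the plus strand at chr11:61792980-61867354 and FADS1 (ENSG00000149485.19) on the minus strand at chr11:61799627-61829318 in GRCh38. Their annotated extents overlap, and 5.11% of the exon bases of FADS2 and 5.57% of those of FADS1 are shared with another gene. The RefSeq start site of FADS1 lies 800 or 599 bases from those of FADS2, inside the extent of FADS2, and FADS1 is read back across them on the opposite strand. SCD (ENSG00000099194.6, chr10:100347233-100364826, plus strand), SCD5 (ENSG00000145284.12, chr4:82629539-82798796, minus strand) and ME1 (ENSG00000065833.9, chr6:83210402-83431051, minus strand) share no exon base with another gene.

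Elongation showed no common direction in PANC-1, with 3 of 8 genes higher (37.5%), 3 lower (37.5%) and 2 not passing. The shares among all genes tested were 23.8% and 27.1%. ELOVL6, which lengthens saturated and monounsaturated chains, measured 1.2, 1.23 and 1.4 CPM in the knockdown against 3.68, 3.86 and 4.235 CPM in scramble, a log2 fold change of -1.62 (SE 0.23, adjusted p = 2.27e-06). These levels rest on 21 to 84 counts a library. ELOVL7, another elongase of saturated chains, measured 2.4, 3.46 and 3.76 CPM against 6.95, 8.4 and 9.23 CPM, a log2 fold change of -1.35 (SE 0.18, adjusted p = 8.06e-07). Neither elongase overlapped between its groups. ELOVL2, which extends polyunsaturated chains, was lower by 0.31 on the log2 scale (adjusted p = 0.00263). The 3 higher genes were ELOVL1, which lengthens very long saturated chains (0.25), and the reductases HSD17B12 (0.46) and TECR (0.19), which complete each cycle behind the elongases. HSD17B12 shares 21.9% of its exon bases with other genes. TECR was no longer called without FOSL1 knockdown replicate 1, 2 or 3 or without scramble replicate 2 or 3 (adjusted p = 0.0513 to 0.0953), nor with upper quartile scaling (0.0555), and stood at 0.28 without scramble replicate 1. ELOVL4 and ELOVL5 did not pass, at -0.42 and -0.08, but ELOVL4 passed without scramble replicate 1 (-0.57, adjusted p = 0.0152).

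Of the 7 genes of activation and mitochondrial entry, 2 were higher and 1 was lower in PANC-1. The shares among all genes tested were 23.8% and 27.1%. Of the acyl-CoA synthetases, ACSL4, which prefers arachidonate, was lower by 0.35 on the log2 scale (adjusted p = 0.000891), while ACSL1 (-0.10), ACSL3 (0.12) and ACSL5 (0.26) did not pass. ACSL3 passed without scramble replicate 2 (0.20, adjusted p = 0.0408), and ACSL5 was at 0.228 to 0.752 CPM. CPT1A, the carnitine palmitoyltransferase of the outer membrane in most tissues, measured 236, 243 and 248 CPM in the knockdown against 206, 204 and 200.5 CPM in scramble, a log2 fold change of 0.25 (SE 0.06, adjusted p = 0.000604). Its groups did not overlap. CPT1B, the muscle form, measured 1.88, 1.96 and 1.67 CPM against 0.83, 0.721 and 1.66 CPM, a log2 fold change of 0.77 (SE 0.32, adjusted p = 0.0498). The lowest knockdown library and the highest scramble library were nearly level, and 66.4% of the exon bases of CPT1B belong also to the read-through gene CHKB-CPT1B. CPT1B was not called by DESeq2 (adjusted p = 0.0794), with upper quartile scaling (0.0534), with all 12 libraries in 1 fit (0.0545), or without any 1 of the FOSL1 knockdown libraries or scramble replicate 1 or 2 (0.0652 to 0.19), and stood at 1.25 without scramble replicate 3 (adjusted p = 0.00494). CPT2, the transferase of the inner membrane, did not pass, at 0.00.

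Most oxidation genes of PANC-1, namely 8 of 12 in beta-oxidation and all 3 of electron transfer, did not pass. In beta-oxidation 25% were higher and 8.33% lower, against 23.8% and 27.1% of all genes tested. DECR1, the mitochondrial dienoyl-CoA reductase needed to oxidise polyunsaturated chains, was the exception in size, at 57.0, 56.0 and 55.8 CPM in the knockdown against 25.3, 30.3 and 27.1 CPM in scramble. It was 2.04-fold higher (log2 fold change 1.03, SE 0.08, adjusted p = 2.79e-10), with groups that did not overlap. The gene lies on chromosome 8 and shares no exon base with another gene. ACAT1, the mitochondrial acetoacetyl-CoA thiolase, was higher by 0.34 (adjusted p = 0.000121) and HADHA, the alpha subunit of the trifunctional protein, by 0.17 (adjusted p = 0.0128). HADHA was not called without FOSL1 knockdown replicate 2 (adjusted p = 0.0767). Its partner subunit HADHB, whose start site lies 307 bases away on the opposite strand, stood at -0.01 and did not pass, and the ratio of HADHA to HADHB counts was 2.6 to 2.72 in the knockdown and 2.3 to 2.42 in scramble. ACADVL, the very long chain acyl-CoA dehydrogenase, was lower by 0.15 (adjusted p = 0.0374), but not without scramble replicate 1 (-0.08, adjusted p = 0.13) or 2, not without any 1 of the FOSL1 knockdown libraries, and not with DESeq2 (adjusted p = 0.092), RLE scaling (0.0853), no count filter (0.109), all 12 libraries (0.0734) or with mitochondrially encoded genes and the 20 of highest abundance left out (0.0746).

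The other genes of oxidation lay between -0.10 for ECI2 and 0.21 for ETFDH in PANC-1. They comprised the dehydrogenases ACADM (0.15), ACADS (0.04) and HADH (-0.02), the thiolases ACAA1 (0.16) and ACAA2 (0.16), the enoyl-CoA isomerase ECI1 (0.12), and the electron transfer flavoprotein subunits ETFA (0.02) and ETFB (0.13). Without scramble replicate 1, ACAA1 (0.31, adjusted p = 0.00037), ECI1 (0.26, adjusted p = 0.000135) and ETFB (0.30, adjusted p = 0.0435) passed. Without scramble replicate 3, ACADM (0.23, adjusted p = 0.0137) and ETFDH (0.30, adjusted p = 0.022) passed, and ETFDH passed also with all 12 libraries in 1 fit.

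**Figure D2:**
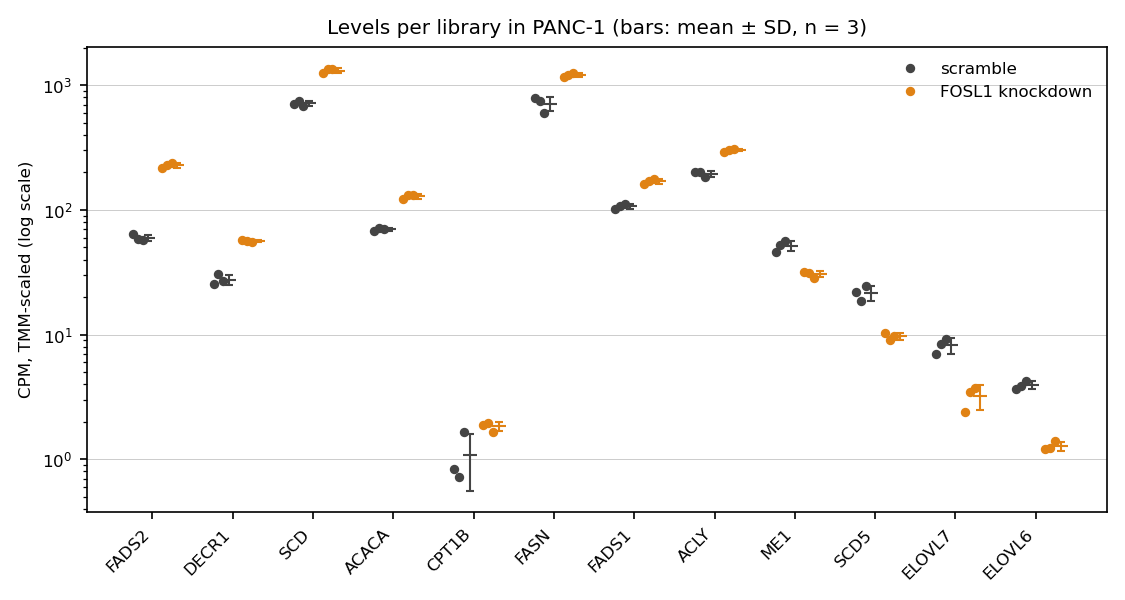
Level in each PANC-1 library, in CPM on a log scale (y axis), of the 12 genes past an adjusted p of 0.05 and an absolute log2 fold change of 0.5 (x axis), with the mean ± SD of 3 libraries beside the points. The genes were chosen by the test in these same libraries, so points that lie apart are no separate support. Knockdown points lie apart from scramble points for all 12 genes. For CPT1B the highest scramble library (1.66 CPM) almost reaches the lowest knockdown library (1.67 CPM).

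Summed over roles, the largest gains in CPM in PANC-1 lay in desaturation and synthesis. Desaturation genes summed to 1760 ± 75.3 CPM (SD, n = 3) in the knockdown and 947 ± 31.1 CPM in scramble, and synthesis genes to 1713 ± 59.2 CPM and 1077 ± 104 CPM. Beta-oxidation genes summed to 1195 ± 38.2 CPM against 1124 ± 26.1 CPM, with ranges of 1163 to 1237 CPM and 1096 to 1147 CPM that did not overlap. The sums of elongation (578 to 587 against 547 to 573 CPM) and carnitine entry (253 to 266 against 219 to 222 CPM) also lay apart. Those of activation and electron transfer overlapped. Beta-oxidation sums lay apart in H1299 too, at 1144 to 1148 CPM in the knockdown against 1111 to 1138 CPM in scramble. All 42 genes held 0.573% to 0.602% of the scaled counts in the knockdown and 0.417% to 0.443% in scramble. Of the net gain of 1577 CPM, SCD made up 38% and FASN 31.6%, followed by FADS2 with 10.7%. SCD and FASN together took 41.97% to 43.5% of the counts of the 42 genes in the knockdown against 30.8% to 34.1% in scramble. These sums are descriptions and were not tested.

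In H1299, the lower genes were spread over several roles. FADS3, a desaturase-like gene next to FADS2, measured 12.4, 13.1 and 13.2 CPM in the HDAC2 knockdown against 20.7, 20.8 and 21.5 CPM in scramble, a log2 fold change of -0.70 (SE 0.10, adjusted p = 3.14e-06). ELOVL4, which makes very long chains, measured 13.8, 13.6 and 14.5 CPM against 18.9, 20.9 and 22.6 CPM, a log2 fold change of -0.58 (SE 0.10, adjusted p = 7.76e-05). MLYCD, the malonyl-CoA decarboxylase, measured 27.8, 30.2 and 30.3 CPM against 44.4, 43.5 and 43.3 CPM, a log2 fold change of -0.57 (SE 0.08, adjusted p = 1.94e-06). For all 3 genes, every knockdown library lay below every scramble library, and 12.9% of the exon bases of MLYCD are shared with other genes.

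SCD was the most abundant of the lower genes in H1299. It measured 2604, 2476 and 2539 CPM in the knockdown and 3156, 3248 and 3020 CPM in scramble, a log2 fold change of -0.31 (SE 0.05, adjusted p = 7.99e-05), and its groups did not overlap. The other desaturases FADS1 (-0.10), FADS2 (-0.09) and SCD5 (-0.02) did not pass. FADS2 stood at 42.01 to 44.8 CPM in the knockdown and 44.5 to 48.7 CPM in scramble, with groups that overlapped. CPT1A, at 101, 91.1 and 90.5 CPM against 112, 108 and 108 CPM, was lower by 0.21 (adjusted p = 0.0144), but not without HDAC2 knockdown replicate 2 (adjusted p = 0.103) or 3 (0.118). ELOVL7 was lower by 0.33 (adjusted p = 0.034), with scramble replicate 1 (12.3 CPM) close to the knockdown libraries (11.1 to 11.8 CPM). It was not called by DESeq2 (adjusted p = 0.0753), without a count filter (0.0527), with all 12 libraries in 1 fit (0.0795), or without any 1 of the HDAC2 knockdown libraries or scramble replicate 2 or 3 (0.0751 to 0.182).

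Oxidation genes of H1299 went in both directions. ACADM, the medium-chain acyl-CoA dehydrogenase, rose from 66.7, 73.9 and 77.6 CPM to 97.3, 95.0 and 99.4 CPM, a log2 fold change of 0.42 (SE 0.07, adjusted p = 2.3e-05). HADH, the dehydrogenase of short chains, was higher by 0.29 (adjusted p = 0.0101), and ETFDH, which passes electrons on to ubiquinone, by 0.33 (adjusted p = 0.0125). ECI2, an enoyl-CoA isomerase, was lower by 0.34 (adjusted p = 0.000548), and ACAA2, a mitochondrial thiolase, by 0.31 (adjusted p = 0.00211). The groups of ACADM, HADH, ETFDH, ECI2 and ACAA2 did not overlap. ECI2 shares 29.8% of its exon bases with antisense genes. HADH was not called without HDAC2 knockdown replicate 3 (adjusted p = 0.066) or scramble replicate 2 (0.0659), nor ETFDH without HDAC2 knockdown replicate 3 (0.0608) or scramble replicate 3 (0.0613).

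Among the synthetic and elongating enzymes of H1299, ACACA (0.24, adjusted p = 0.00398) and TECR (0.23, adjusted p = 0.00417) were higher. ACACA measured 182, 181 and 169 CPM against 146, 158 and 145 CPM, with groups that did not overlap. FASN did not pass, at 0.11, with 1664 to 1801 CPM in the knockdown and 1463 to 1768 CPM in scramble. Its 2 groups overlapped, and it passed without scramble replicate 1 (0.19, adjusted p = 0.00251), as did ELOVL1 (0.19, adjusted p = 0.00546), HADHB (0.21, adjusted p = 0.0104) and ACACB (-0.27, adjusted p = 0.0355). ACACB passed also without scramble replicate 3 (adjusted p = 0.0466) and with upper quartile scaling (0.0407), and ACSS2 with upper quartile scaling (0.049). The 27 genes that did not pass lay between -0.24 for ACACB and 0.16 for HADHB and ACSL1.

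The number of higher genes in H1299 rested on single libraries. It was 8 without scramble replicate 1 and 3 without HDAC2 knockdown replicate 3. Scramble replicate 1 differed from scramble replicates 2 and 3 with chi-square values, divided by their degrees of freedom, of 7.62 and 6.79, while 3.855 was found between those 2 libraries. In PANC-1, scramble replicate 1 differed from the other scramble libraries with values of 7.82 and 10.6, while 3.22 was found between them, and 17 genes were higher there without it.

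**Figure D3:**
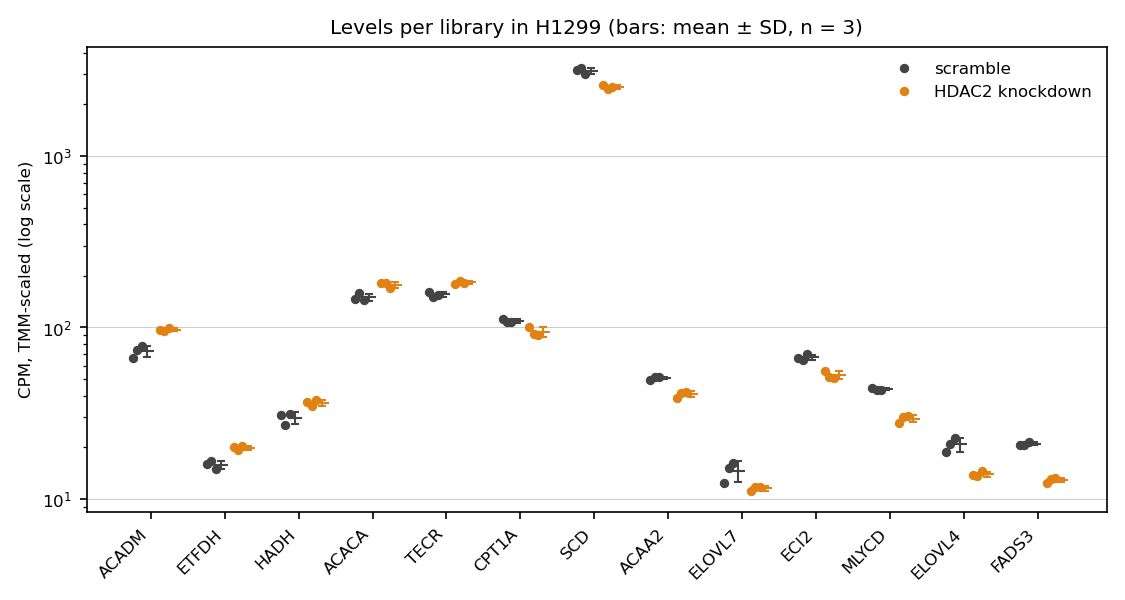
Level in each H1299 library, in CPM on a log scale (y axis), of the 13 genes past an adjusted p of 0.05 (x axis), with the mean ± SD of 3 libraries beside the points. ACADM lies higher in every knockdown library (95.0 to 99.4 CPM) than in scramble (66.7 to 77.6 CPM), and FADS3 lies lower (12.4 to 13.2 CPM against 20.7 to 21.5 CPM).

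The difference between both effects was tested as an interaction over all 12 libraries. It passed for 18 of the 42 genes, with 13 (31%) higher and 5 (11.9%) lower in the FOSL1 knockdown of PANC-1 relative to the HDAC2 knockdown of H1299. Of all 18505 genes tested, 6250 passed in either direction (33.8%), of which 3378 were higher and 2872 lower. All 5 desaturases were among the 18 genes. SCD and CPT1A passed in opposite directions in the 2 lines, with differences of 1.205 (SE 0.08, adjusted p = 1.11e-13) and 0.49 (adjusted p = 2.86e-05) on the log2 scale. FADS2 had the largest difference of the 42 genes, 2.05 (SE 0.10, adjusted p = 1.38e-16), and ELOVL6 the most negative, -1.62 (adjusted p = 5.24e-08). In H1299, ELOVL6 stood at 73.9 to 75.2 CPM in the knockdown and 66.9 to 77.6 CPM in scramble, well above its level in PANC-1. ACACA and TECR were higher and ELOVL7 lower in both knockdowns. The differences passed for ACACA (0.65, adjusted p = 5.21e-07) and ELOVL7 (-0.99, adjusted p = 0.000422). The line and the gene that was knocked down changed together, so their parts in these differences cannot be told apart.

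**Figure D4:**
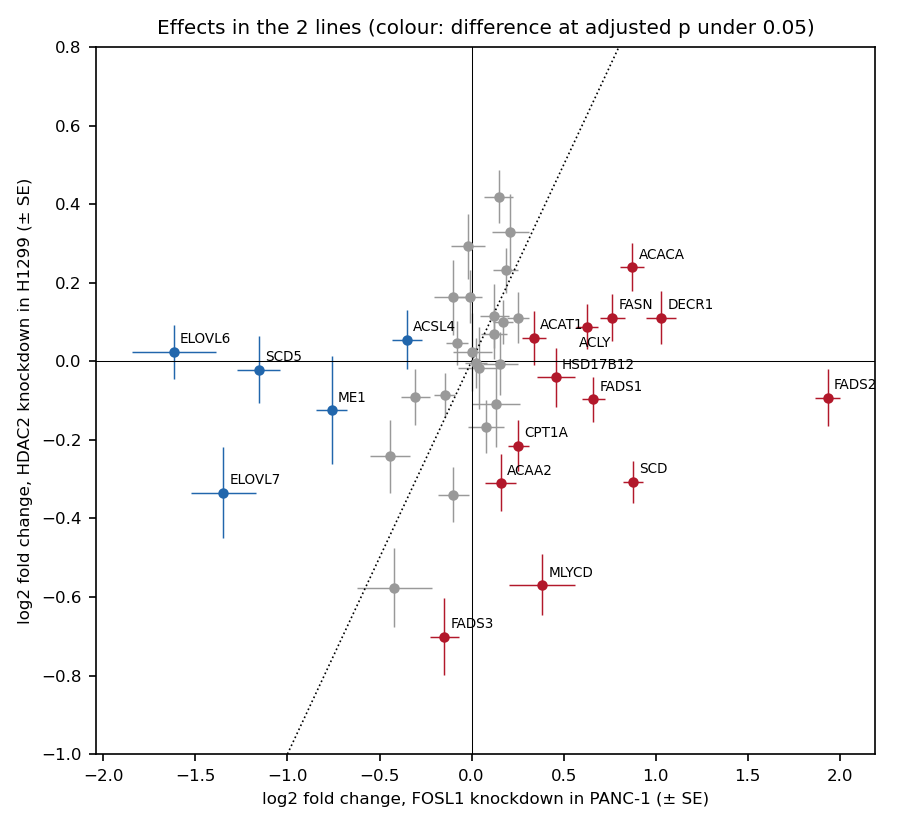
Log2 fold change in the HDAC2 knockdown of H1299 (y axis) against that in the FOSL1 knockdown of PANC-1 (x axis) for the 40 genes tested in both lines, with standard errors as bars and equal effects on the dotted line. Coloured and named genes differ between the comparisons at an adjusted p under 0.05, and FADS2 (1.93 and -0.09) and ELOVL6 (-1.62 and 0.02) lie farthest from the dotted line.

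Levels can be set against each other between genes only per length. Per kilobase of annotated exons, SCD ranked first and FASN second among the 42 genes in all 4 groups, at 136 and 76.5 CPM per kilobase in PANC-1 scramble and 599 and 173 CPM per kilobase in H1299 scramble. In the PANC-1 knockdown they stood at 250.3 and 130 CPM per kilobase, so that SCD remained below its level in H1299. FADS2 moved from rank 23 to rank 11 in PANC-1, from 5.67 to 21.6 CPM per kilobase, and held rank 30 in both H1299 groups. ELOVL6 held rank 39 in PANC-1 scramble and rank 41 in the knockdown, but ranks 21 and 20 in H1299. ACSL5 and CPT1B were the lowest of the 42 genes in PANC-1 scramble and in both H1299 groups. The scaling was done within each line, so levels are set across lines as a description.

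The promoters of FADS2, SCD and ME1 are shown as examples of genes that rose (FADS2 and SCD) and fell (ME1) in PANC-1. The windows of ELOVL6, ELOVL7 and SCD5, which fell further than ME1, held no AP-1 match. Each line gives the 250 bases before the RefSeq start site in GRCh38.p14, 5′ to 3′ in the direction of the gene, with a match to the AP-1 motif in capitals. FADS2 spans chr11:61815953-61816202 on the plus strand and is the first of 2 windows, SCD spans chr10:100346983-100347232 on the plus strand, and ME1 spans chr6:83431052-83431301 on the minus strand.
FADS2: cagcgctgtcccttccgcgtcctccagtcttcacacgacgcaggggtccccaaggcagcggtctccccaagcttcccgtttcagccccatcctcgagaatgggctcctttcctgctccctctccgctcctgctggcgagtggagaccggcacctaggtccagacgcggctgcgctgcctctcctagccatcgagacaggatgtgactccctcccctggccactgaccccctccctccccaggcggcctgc
SCD: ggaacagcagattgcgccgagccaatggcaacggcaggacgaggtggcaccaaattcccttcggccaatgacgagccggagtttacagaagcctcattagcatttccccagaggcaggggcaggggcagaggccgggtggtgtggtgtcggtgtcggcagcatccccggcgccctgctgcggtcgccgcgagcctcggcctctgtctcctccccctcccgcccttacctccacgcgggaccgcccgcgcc
ME1: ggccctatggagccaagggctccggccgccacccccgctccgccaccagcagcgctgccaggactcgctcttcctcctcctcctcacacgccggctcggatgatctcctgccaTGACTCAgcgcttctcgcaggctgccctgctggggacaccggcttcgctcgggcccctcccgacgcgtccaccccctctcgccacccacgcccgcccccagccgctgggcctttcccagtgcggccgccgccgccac

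RefSeq promoter windows of 300 bases, 250 before and 50 after the start, matched 36 of the 42 genes with 53 windows. The 6 genes with no window were ACAA1, CPT1B, DECR1, ETFDH, FASN and HSD17B12. Each motif was searched on both strands. The AP-1 motif TGANTCA was found in 4 of 53 windows (7.55%), those of ACADVL, ACSL1, ELOVL5 and ME1, and in 7.71% of all 35116 windows. In the ME1 window it lay 137 bases before the start. The sterol regulatory element TCACNCCAC was found in the window of ACSL1 (1.89%, against 1.13% of all windows), the E-box CACGTG in those of ELOVL4 and ELOVL5 (3.77%, against 7.26%), and a direct repeat bound by nuclear receptors in none (against 0.188%). Of the 4 genes with an AP-1 match, ME1 and ACADVL were lower in the FOSL1 knockdown and ACSL1 and ELOVL5 did not pass, and of the 4 genes past -0.5 only ME1 had a match. ACADVL lost its call in 5 of 6 fits with 1 library left out, and with DESeq2. Of the 42 genes 19% were lower in PANC-1, and of all genes 27.1%. A link between match and direction was not tested.

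Regulators of fatty acid metabolism changed in both directions. In PANC-1, 5 of 19 tested regulators were higher (26.3%), 3 lower (15.8%) and 11 did not pass. Of all genes tested there, 23.8% were higher and 27.1% lower. SREBF1, which encodes the sterol response factor that drives lipogenic genes, measured 334, 336 and 337 CPM in the knockdown against 201, 174 and 146 CPM in scramble (log2 fold change 0.95, adjusted p = 3.5e-10), with groups that did not overlap. MID1IP1, a partner of acetyl-CoA carboxylase, was higher by 0.81 (adjusted p = 2.24e-09), and PPARA, a nuclear receptor that drives oxidation genes, was lower by 0.61 (adjusted p = 0.000244). In H1299, 4 of 19 were higher (21.1%) and 4 lower (21.1%), against 10.3% and 12.1% of all genes. INSIG1, which holds the sterol response factors in the endoplasmic reticulum, measured 277, 271 and 282 CPM against 208, 194 and 196 CPM (log2 fold change 0.47, adjusted p = 2.29e-07), again without overlap. PPARD (0.29) and ESRRA (0.24) were higher too. MLXIPL, another listed regulator, was lower in both lines in edgeR's quasi-likelihood test. It stood at -0.51 in PANC-1 (adjusted p = 0.000666) and -1.07 in H1299 (adjusted p = 0.00679). In H1299 it rested on 0.734 to 3.4 CPM. Both SREBF1 and INSIG1 passed in the opposite direction in the other line. SREBF1 was lower in H1299 (-0.23, adjusted p = 0.00378) and INSIG1 lower in PANC-1 (-0.55, adjusted p = 1.94e-06).

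Neighbouring enzymes also moved in both directions. Of the family members and partner enzymes, 29.6% were higher and 33.3% lower in PANC-1, against 23.8% and 27.1% of all genes. In H1299 the shares were 12% and 8%, against 10.3% and 12.1% of all genes. Of 27 family members and partner enzymes tested in PANC-1, 8 were higher and 9 lower. Those at a mean of 5 CPM or more were led by ACAT2, the cytosolic thiolase (0.97), and SLC27A3, a fatty acid transporter (-0.81). Next came SLC25A1, the citrate carrier that supplies ACLY (0.69). ELOVL3, below that floor, was lower by 0.97. In H1299, 3 of 25 were higher and 2 lower, the largest being SLC22A5, a carnitine transporter (-0.42), HACD2, a dehydratase of the elongation cycle (0.26), and SLC27A4, a fatty acid transporter (-0.23). Of the genes of triglyceride and lipid droplet metabolism, 3 of 22 were higher (13.6%) and 8 lower (36.4%) in PANC-1. In H1299, 2 of 23 of these were higher (8.7%) and 5 lower (21.7%). Of those at a mean of 5 CPM or more in PANC-1, HILPDA, an inhibitor of lipolysis (-1.19), and LIPE, the hormone-sensitive lipase (-0.85), were lower. GPAM, which starts glycerolipid synthesis, was higher there (0.82). MGLL, below that floor, fell furthest (-3.10), at 0.285 to 0.670 CPM in the knockdown against 3.68 to 5.44 CPM in scramble. It was also lower in H1299 (-0.42). The acyltransferase AGPAT2 (-0.59) and the phosphatase LPIN3 (-0.55) were lower and AGPAT5 (0.43) higher in H1299.

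Peroxisomal oxidation had 5 of 17 genes higher (29.4%) and 4 lower (23.5%) in PANC-1, against 23.8% and 27.1% of all genes. The called genes included DECR2, the peroxisomal dienoyl-CoA reductase (0.68), and ACOT8, an acyl-CoA thioesterase (-0.45). DECR2 thus passed in the same direction as its mitochondrial counterpart DECR1. In H1299, 2 of 18 were higher (11.1%) and 1 lower (5.56%), against 10.3% and 12.1% of all genes. There, CROT, the carnitine octanoyltransferase, stood at 0.41 and ACOT8 at 0.26. Mitochondrial fatty acid synthesis had 1 of 9 genes higher (11.1%) and 2 lower (22.2%) in PANC-1, and 2 of 10 lower (20%) in H1299. In PANC-1, MCAT, the malonyl transferase, was higher (0.42) and LIAS, the lipoate synthase, lower (-0.50). HSD17B8, a subunit of its ketoreductase, was lower in both lines (-0.75 and -0.33), and the other subunit, CBR4, was lower in H1299 (-0.48). The HSD17B8 call in H1299 was narrow (adjusted p = 0.0493, edgeR's quasi-likelihood test), and its groups there overlapped.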

How the data were processed

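Raw counts of 60668 genes were analysed in 12 RNA-seq libraries, 3 in each of 4 groups taken from the sample labels. The deposited counts were made by the authors with STAR 2.7.2b on GRCh38 and featureCounts 2.0.1, per the submitters' processing notes. The strand setting of the counting is not given in the sources used here, so reads from overlapping genes on opposite strands cannot be told apart. Knockdown and scramble libraries were compared within each line in edgeR 4.0.16 (R 4.3.3), with filterByExpr, TMM scaling and the quasi-likelihood test, and the Benjamini-Hochberg method over all tested genes. The difference between knockdowns was an interaction contrast over all 12 libraries. Levels are CPM with TMM-scaled totals, and the SE was derived from the fold change and the F statistic. An exact permutation test of 3 against 3 cannot go below 0.1, so genes were tested in the model across all genes. The labels call the replicates biological, but whether they were transduced separately is not stated, and p-values then measure only the spread between these samples. With 3 libraries a group, no interval is given for a single library. Whether groups overlapped is given as description, since called genes were chosen from these same libraries. The share of all genes whose groups did not overlap was not counted.

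The 42 genes and the other lists were chosen with earlier results of these data known. Values for every library are given for genes past an adjusted p of 0.05 and an absolute log2 fold change of 0.5, and for further genes past the adjusted p where a comparison turns on them. From each other list, up to 3 genes with the largest change among those past the adjusted p and with a mean of at least 5 CPM were named. ELOVL3, MGLL and MLXIPL, outside this rule, were named for the size of their change. An item that this rule would name is not reported here. Gene positions and exon overlaps came from a GENCODE annotation of GRCh38, and promoter windows from RefSeq (GRCh38.p14). The alternatives were DESeq2 1.42.0, limma-voom (limma 3.58.1), RLE and upper quartile scaling, 2 other count filters, the replicate number as a block, all 12 libraries in 1 fit, mitochondrially encoded genes and the 20 of highest abundance left out, each library left out in turn, and the fold threshold. The fit was tested on simulated data.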

Additional observations from a re-analysis of the deposited data

Results flagged for a closer look

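The effects of the FOSL1 knockdown in PANC-1 and the HDAC2 knockdown in H1299 differed for 18 of the 42 genes in edgeR's quasi-likelihood test of the interaction. The same test passed for 6250 of all 18505 genes (33.8%). Differences are the log2 fold change in PANC-1 minus that in H1299, and the line and the knocked-down gene cannot be told apart in any of them.

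Among the desaturases, the difference was 2.05 for FADS2, 1.205 for SCD, 0.78 for FADS1, 0.57 for FADS3 and -1.12 for SCD5, with adjusted p-values between 1.38e-16 and 0.000349. FADS3 passed in H1299 and not in PANC-1. In synthesis, it was 0.97 for MLYCD (adjusted p = 7.86e-05), 0.67 for FASN (4.51e-06), 0.65 for ACACA (5.21e-07), 0.56 for ACLY (2.25e-06) and -0.61 for ME1 (0.0018). MLYCD passed in H1299 and not in PANC-1.

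In elongation, it was -1.62 for ELOVL6 (adjusted p = 5.24e-08), -0.99 for ELOVL7 (0.000422) and 0.52 for HSD17B12 (0.00328). In activation and entry, it was -0.39 for ACSL4 (adjusted p = 0.0115) and 0.49 for CPT1A (2.86e-05). In beta-oxidation, it was 0.94 for DECR1 (adjusted p = 2.03e-08), 0.49 for ACAA2 (0.00063) and 0.30 for ACAT1 (0.0112). The difference for ACAT1 was lost without HDAC2 knockdown replicate 1 (0.26, adjusted p = 0.0542) or 2 (0.25, 0.0622), H1299 scramble replicate 3 (0.22, 0.0893), FOSL1 knockdown replicate 3 (0.26, 0.0561) or PANC-1 scramble replicate 3 (0.24, 0.0597).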

How the results depend on the processing

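No gene called in a comparison changed direction under any alternative. Of the called genes, 18 of 22 in PANC-1, 9 of 13 in H1299 and 17 of 18 in the difference kept their call under every change of test, scaling, filter, fit or library. With DESeq2, limma-voom, RLE or upper quartile scaling, other filters, all 12 libraries, or with mitochondrially encoded genes and the 20 of highest abundance left out, 12 to 15 genes were higher and 7 to 8 lower in PANC-1, 5 higher and 7 to 10 lower in H1299, and 18 to 20 differed. Between knockdown and scramble libraries of a line, deviations from group means correlated at -0.114 to 0.121 for the same replicate number. For different numbers the range was -0.115 to 0.127, so no shared replicate effect was visible. Whether the libraries were made in pairs cannot be told from these values. With the number as a block, the counts were 14 and 8 in PANC-1, 5 and 8 in H1299 and 18 for the difference. With the fold threshold of 0.5 added, the counts were 8 and 4 in PANC-1, 0 and 3 in H1299, and 14. Leaving out each library in turn gave 12 to 17 higher and 7 to 8 lower genes in PANC-1, 3 to 8 and 6 to 9 in H1299, and 17 to 21 differences.

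Only genes that did not pass changed sign, and the cause was not tested. In PANC-1, HADHB took values of 0.01265 (DESeq2), 0.01266 (RLE), 0.01203 (no filter), 0.0167 (all 12 libraries) and 0.009464 (without the most abundant genes), CPT2 of -0.01974 (upper quartile) and -0.01588 (at least 10 counts), ETFA of -0.0001829 (upper quartile) and HADH of 0.002674 (all 12 libraries). In H1299, ETFA took 0.001921 (DESeq2), 0.001935 (RLE) and 0.003576 (no filter), and ACAA1 0.001777 (no filter). With each library left out in turn, the ranges in PANC-1 were -0.04831 to 0.04049 for HADHB, -0.0359 to 0.1223 for ACADS, -0.03285 to 0.05739 for CPT2, -0.0294 to 0.04579 for HADH and -0.0639 to 0.6233 for ACSL5. In H1299 they were -0.03768 to 0.04613 for ACAA1, -0.01573 to 0.0193 for ETFA, -0.04416 to 0.02653 for SCD5, -0.1198 to 0.08563 for ACADS, -0.01076 to 0.05492 for CPT2, -0.03074 to 0.06863 for ELOVL6, -0.04776 to 0.1397 for ACSL4 and -0.1108 to 0.01048 for HSD17B12. Depth limits the genes at a few CPM: ACSL5 and CPT1B rested on 2 to 13 counts a library in H1299.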
